A study of Drosophila melanogaster with 8 samples.

Results

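The proteins of the mitochondrial ribosome are encoded in the nucleus, and 68 of their genes were followed across eye-antennal discs of 4 Drosophila melanogaster genotypes. A gene was included where a probe set carried a single current symbol beginning with mRpL (large subunit) or mRpS (small subunit), with the exception of mRpL45. Where a gene had more than 1 probe set, the one with the highest mean signal was used. This gave 43 genes of the large and 25 of the small subunit, from 70 probe sets and out of 8034 named genes tested. Of the 68 gene products, 43 belong to families that bacterial ribosomes share and 25 do not. The genes mRpS10 and mRpL53 share their probe sets with another symbol and were not included, and tko and bonsai, which encode the S12 and S15 proteins under other names, fall outside the symbol rule.

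Mitochondrial ribosomes translate the few messages that the mitochondrial genome encodes, all of them for subunits of the respiratory chain and ATP synthase. Their RNAs come from the mitochondrial genome, whereas their proteins are made in the cytosol and imported. In flies, mutations in several of these genes slow growth or development, and mRpL12 is needed for the cell growth that cyclin D and Cdk4 drive.

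RNA was measured on 8 Affymetrix arrays, 2 biological replicates per genotype, each from 100 pairs of whole eye-antennal discs of wandering 3rd instar larvae. In every genotype the eyeless driver ey-GAL4, active in only a portion of the disc, expressed UAS transgenes. The lacZ control carried 2 copies of UAS-lacZ, while discs called vg had UAS-vg plus 1 copy of UAS-lacZ, and discs called simj had UAS-simj plus 1 copy of it. Discs called vg_simj had both UAS-vg and UAS-simj and 0 copies of UAS-lacZ. The gene vg (vestigial) encodes the cofactor that selects wing identity, and simj (simjang) encodes p66, a component of NuRD, which remodels and deacetylates chromatin. The number of UAS-lacZ copies cannot be told apart from genotype, and all comparisons with lacZ share the same 2 lacZ arrays.

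Values are MAS5 signals, a linear brightness per probe set after each array was scaled to 1 common mean. Changes are differences of log2(signal + 2.8) with their standard error (SE) from limma, fitted over 10205 probe sets. A gene is said to have risen or fallen only at a Benjamini-Hochberg adjusted p under 0.05. In whole discs, fewer cells of a type and less RNA per cell cannot be told apart.

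The transgenes followed the labels. The vg signal was 28.7 ± 0.99 (SD, n = 2) in lacZ, 19.4 ± 3.96 in simj, 246 ± 17.6 in vg and 417 ± 21.9 in vg_simj discs. The signal of simj was 1162 ± 140 in simj and 994 ± 117 in vg_simj discs, beside 603 ± 176 in lacZ and 637 ± 59.4 in vg discs, and the 4 arrays with its transgene were the highest. Against lacZ, vg was called in vg discs (2.98 ± 0.27, limma adjusted p = 0.00419) and in vg_simj discs (3.73 ± 0.27, adjusted p = 0.000443). The changes of simj, 0.97 ± 0.22 in simj and 0.75 ± 0.22 in vg_simj discs, were not called (adjusted p = 0.18 and 0.132). A transgene's own rise could thus miss the threshold. All 10 eye-antennal disc markers exceeded the array median on both arrays of every group. Their summed signal was 18199 and 18214 in lacZ, 17111 and 18270 in vg, 11983 and 11107 in simj, and 13524 and 17145 in vg_simj discs, so that both simj arrays were lower than all others, and the part of this in the simj results was not tested. Markers of other tissues were also present, and they are given beside the results they move with.

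All 68 genes were above the median signal on all 8 arrays, with signals from 414 to 3421, and all passed the filter on low values. The steadiest gene was mRpS31, whose highest array exceeded its lowest by 1.139-fold. The most variable was mRpL42, with signals of 1105 and 1224 in lacZ, 1150 and 1033 in vg, 1097 and 1190 in simj, and 1355 and 775.4 in vg_simj, a ratio of 1.747-fold between the 2 vg_simj arrays. Both encode proteins without a bacterial counterpart, and both were picked out after their values were seen. The median ratio of highest to lowest array was 1.374-fold, beside 1.662-fold over all probe sets tested. The mean signals of the 68 genes lay between the 53.2 and 89.4 percentiles of all probe sets tested, which thus include many dimmer ones. The part of brightness in this smaller ratio, and in the shares of intervals within 2-fold and 1.5-fold given below, was not tested. In 16 of the 68 genes it exceeded 1.5-fold, and in 0 of them 2-fold.

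**Figure D1:**
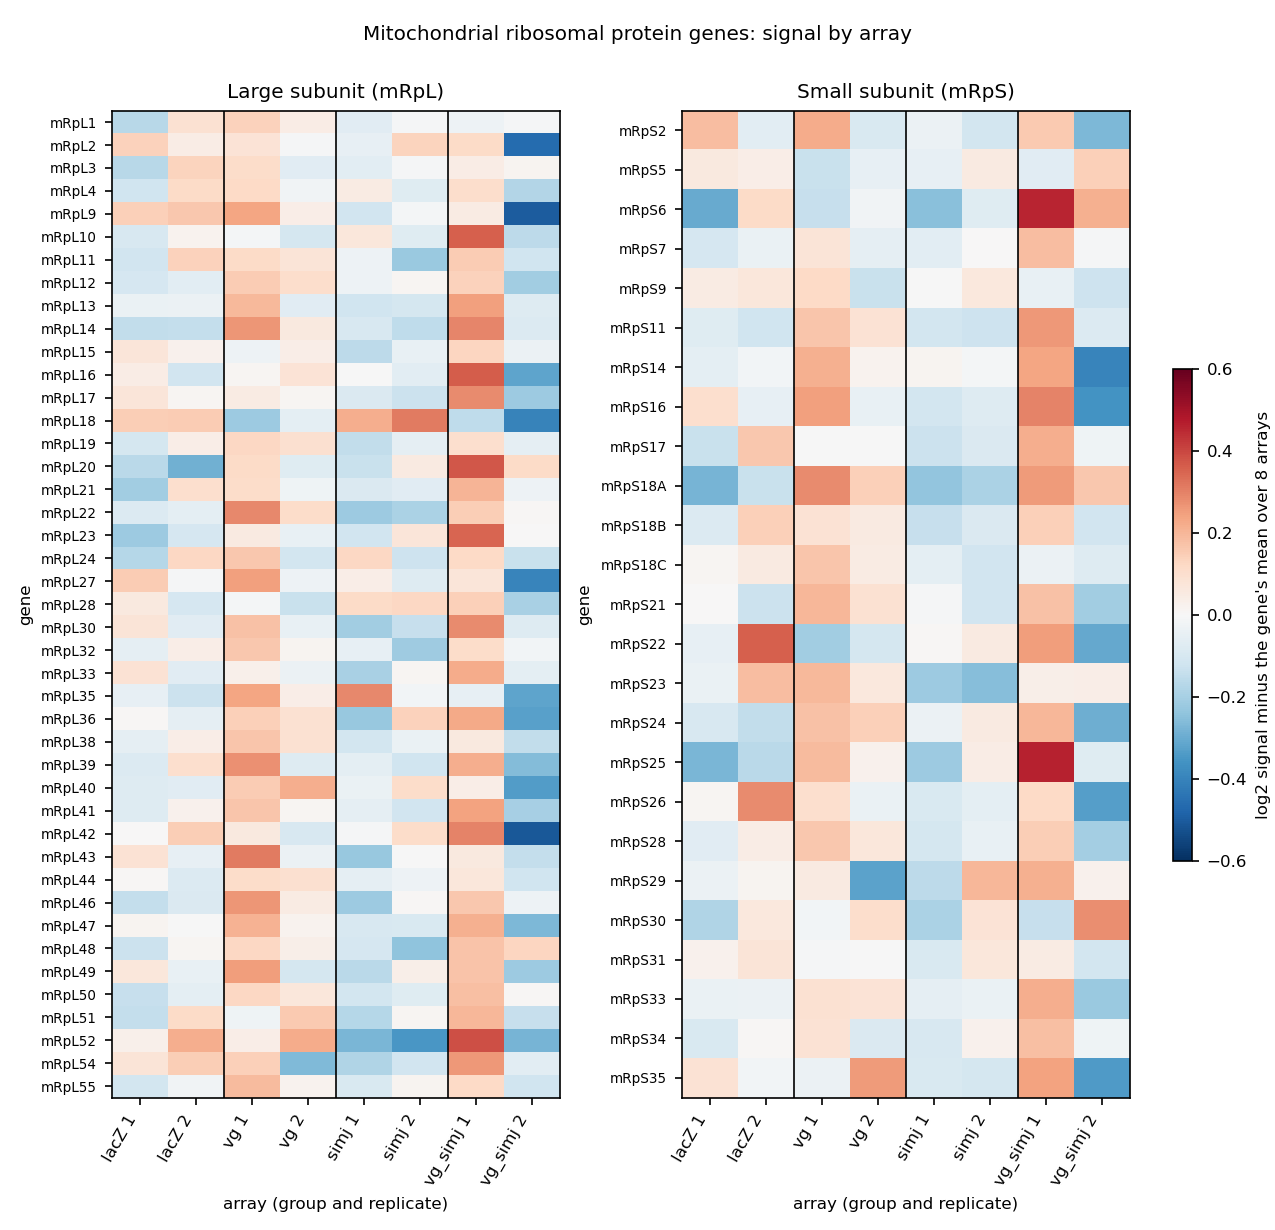
Log2 signal of each of the 68 genes on each of the 8 arrays, as the difference from the gene's own mean over the 8 arrays (colour scale in log2 units, red above and blue below that mean). Rows are genes, large subunit on the left and small subunit on the right, and columns are arrays, with lines between the groups. The column of vg_simj replicate 1 is red and that of replicate 2 blue for most genes, while mRpS18A is red on all 4 vg-carrying arrays and mRpL18 blue on the same 4.

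For these genes the arrays of the vg_simj group stood apart from each other. The median deviation of the 68 genes from their own means was 0.173 log2 units on vg_simj replicate 1 and -0.123 on replicate 2. It was -0.053 and 0.013 on the lacZ arrays, 0.125 and 0.018 on the vg arrays, and -0.092 and -0.046 on the simj arrays. The genes were thus displaced together on single arrays, and the gap between the vg_simj replicates was wider than any between the means of 2 groups.

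The displacement ran through nearly the whole set. The signal was higher on vg_simj replicate 1 than on replicate 2 for 64 of 68 genes (94.1%), when the same held for 47.7% of all probe sets tested. For the vg arrays it was so for 55 of 68 (80.9%, against 50.5%), for lacZ for 22 (32.4%, against 46%) and for simj for 21 (30.9%, against 48.7%). Quantile normalization, which gives all arrays the same distribution, left the medians on the vg_simj arrays at 0.184 and -0.148. The 32 cytosolic ribosomal protein genes make the ribosomes of the cytosol. The same step took their medians on these arrays from 0.212 and -0.001 to 0.035 and -0.011. After it their medians lay between -0.031 and 0.035 on every array. Because the step fixes the signal at each rank, genes that keep like ranks on all arrays are drawn together by the step itself. How far this held for either list was not tested, so the lists cannot be compared by what the step left of each displacement.

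Salivary gland markers moved with the same arrays. The summed signal of the 11 markers was 15209 on vg_simj replicate 1 and 1831 on replicate 2, 5806 and 872.5 on the vg arrays, 2894 and 2757 on the simj arrays, and 181.1 and 245 on the lacZ arrays. Of the 11, ng4 did not exceed the array median on any array of these groups, and the glue gene Sgs1 did not in vg_simj, simj or lacZ. Between groups the 2 did not always go together. The simj sums exceeded the lacZ sums, while the median deviations of the 68 genes were -0.092 and -0.046 in simj and -0.053 and 0.013 in lacZ discs. The lowest median, -0.123, was that of vg_simj replicate 2, whose sum also exceeded both lacZ sums. The part of salivary gland tissue in the displacement was not tested.

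**Figure D2:**
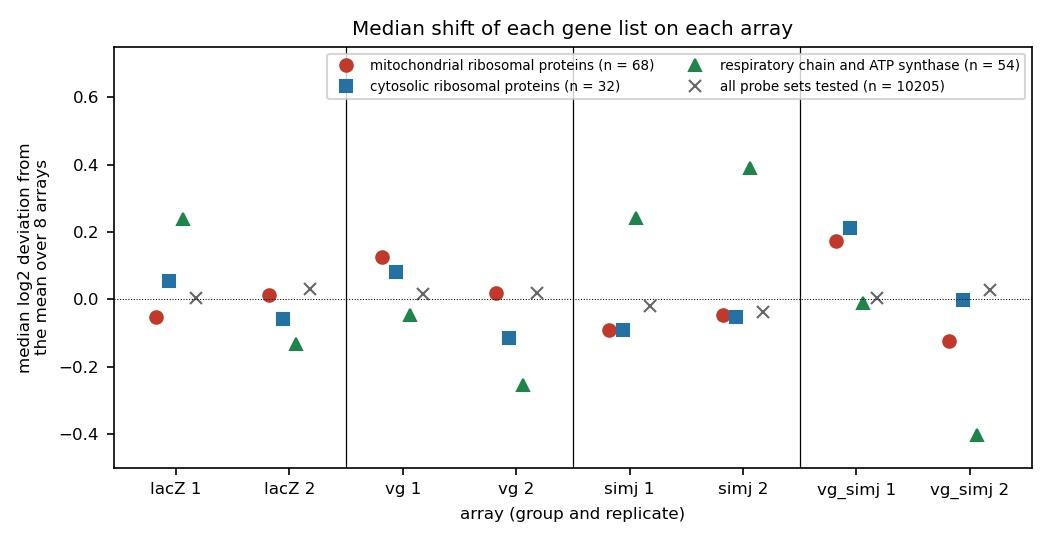
Median log2 deviation from the mean over 8 arrays (y axis), on each array (x axis, group and replicate), for the mitochondrial ribosomal protein genes, the cytosolic ribosomal protein genes, the respiratory chain and ATP synthase genes and all probe sets tested. The mitochondrial ribosomal protein genes lie at 0.173 and -0.123 on the vg_simj replicates, and all probe sets tested stay between -0.036 and 0.031 on every array.

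The effect of vg by itself was examined first. Against lacZ, 0 of 68 genes were called by limma, when 0.774% of all probe sets tested were, and 1 gene (1.47%) had an unadjusted p under 0.05, beside 10.1% of all probe sets. The median change was 0.081 log2 units, beside -0.004 over all probe sets, and 51 of 68 changes were positive. The 2 vg arrays were both above the 2 lacZ arrays for 24 genes (35.3%, beside 20% of all probe sets) and both below them for 4 (5.88%, beside 19.4%). Without vg replicate 1 the median was 0.023, and without replicate 2 it was 0.157. After median centring of the arrays it was 0.13, beside 0.045 over all probe sets. The 95% intervals of all 68 changes lay within 2-fold and those of 56 within 1.5-fold, when 67.3% and 39.3% of all probe sets did so.

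Single genes differed little between vg and lacZ discs. The largest positive difference, that of mRpS18A, is given below with both vg groups. The small-subunit gene mRpS25, whose product bacteria lack, had signals of 857.2 and 924.8 in lacZ and of 1182 and 1055 in vg discs. Its arrays did not overlap, but the change of 0.33 ± 0.19 (SE) was not called (adjusted p = 0.651). For mRpL14, a protein of the face between the subunits, both lacZ arrays were near 1126 (1125 and 1127) and the vg arrays at 1499 and 1299. The change was 0.31 ± 0.15 and was not called either (adjusted p = 0.564).

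The lowest differences with vg were those of mRpS22, mRpL18 and mRpL54. The mitochondria-specific gene mRpS22 read 1277 and 1697 in lacZ and 1145 and 1229 in vg discs, so that its 2 lacZ arrays were farther apart than the groups were (-0.31 ± 0.21, adjusted p = 0.699). For mRpL54, also without a bacterial counterpart, the signals were 741.8 and 778.9 in lacZ and 776.4 and 586.8 in vg discs. Its change of -0.17 ± 0.18 (adjusted p = 0.827) became 0.03 without vg replicate 2.

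Discs with simj by itself came next. Of 68 genes 0 were called against lacZ, beside 0.412% of all probe sets, and 0 had an unadjusted p under 0.05, beside 8.17% of all probe sets. The median change was -0.047, beside -0.035 over all probe sets, and 21 of 68 changes were positive. Both simj arrays were above both lacZ arrays for 8 genes (11.8%, beside 16%) and below them for 16 (23.5%, beside 24.1%). All 68 intervals lay within 2-fold and 59 within 1.5-fold, when 67.5% and 40.2% of all probe sets did so.

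The widest differences in simj discs were downward. The gene mRpL52, for a large-subunit protein that bacteria lack, read 1150 and 1306 in lacZ and 929.4 and 882.3 in simj discs, with no overlap. Its change of -0.44 ± 0.21 was not called (adjusted p = 0.660, 95% interval -0.92 to 0.054). For mRpS23, a mitochondria-specific small-subunit protein, the signals were 683 and 797.6 in lacZ and 603.7 and 588.9 in simj discs (-0.31 ± 0.14, adjusted p = 0.622). The change of mRpL54 was -0.26 ± 0.18 (adjusted p = 0.763). In the other direction lay mRpL35 (0.23 ± 0.16), mRpL20 (0.18 ± 0.14) and mRpL28 (0.14 ± 0.14), large-subunit proteins that bacteria share, with adjusted p-values of 0.768, 0.797 and 0.865.

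Discs with both transgenes were compared with each of the other groups. Against lacZ, 0 of 68 genes were called (3.33% of all probe sets), and the median change was 0.013, beside 0.001 over all probe sets. Both vg_simj arrays exceeded both lacZ arrays for 12 genes (17.6%, beside 21.4%) and were below them for 4 (5.88%, beside 20.9%). Against vg, 0 were called (0.921% of all probe sets), with a median of -0.077, 2 genes above without overlap (2.94%, beside 18.9%) and 7 below (10.3%, beside 17.6%). Against simj, 0 were called (1.3% of all probe sets), with a median of 0.067, 18 above without overlap (26.5%, beside 27.2%) and 3 below (4.41%, beside 22.2%). The sign of these medians rested on which vg_simj array was used. Without vg_simj replicate 1 they were -0.127, -0.197 and -0.066 against lacZ, vg and simj, and without replicate 2 they were 0.207, 0.093 and 0.238. An unadjusted p under 0.05 was reached by 4, 0 and 4 genes in these comparisons (5.88%, 0% and 5.88%), beside 15.4%, 9.58% and 17.1% of all probe sets. All 68 intervals lay within 2-fold in each of the 3.

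Among single genes in vg_simj discs, mRpL20 had the largest positive difference from lacZ. Its bacterial counterpart is an early assembly protein of the large subunit in Escherichia coli. It read 1426 and 1309 in lacZ, 1729 and 1516 in vg, 1456 and 1658 in simj, and 2064 and 1728 in vg_simj discs. The lacZ arrays were the lowest of the 8 and did not overlap with any other group, and vg_simj was the highest group, though its lower array fell just below the higher vg array. The change against lacZ was 0.47 ± 0.14 (1.382-fold), with an unadjusted p of 0.0122 in limma and an adjusted p of 0.159.

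The gene mRpS6, whose bacterial counterpart pairs with S18 in the small subunit, had its highest signals in vg_simj discs. It read 487.4 and 652.3 in lacZ, 546 and 592.3 in vg, 505.8 and 572.1 in simj, and 827.2 and 697.5 in vg_simj discs. Both vg_simj arrays were above all the others, yet the lacZ arrays were themselves far apart. The changes of 0.43 ± 0.18 against lacZ, 0.42 ± 0.18 against vg and 0.50 ± 0.18 against simj were not called (adjusted p = 0.316, 0.522 and 0.227).

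Downward in vg_simj discs against lacZ were mRpL18, described next, mRpL9 and mRpL2. For mRpL9, which bacteria share, the arrays read 802.7 and 812 in lacZ and 750.2 and 514.1 in vg_simj discs (-0.38 ± 0.19, adjusted p = 0.416). For mRpL2, a protein close to the site of peptide bond formation, they read 1205 and 1130 in lacZ and 1183 and 795 in vg_simj discs. In both genes the difference came mostly from vg_simj replicate 2, and the change of mRpL2 (-0.27 ± 0.19, adjusted p = 0.599) was 0.02 without it.

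The vg contrast set the 4 arrays that carry vg against the 4 that do not, which averages the effect of vg without and with simj. Here 1 of 68 genes was called (1.47%), beside 3.66% of all probe sets in either direction and 0.97% upward. The called gene was mRpS18A, 1 of the S18-type genes of the fly, whose human counterpart has moved to the large subunit of the mitochondrial ribosome. It read 1358 and 1503 in lacZ, 1402 and 1446 in simj, 2009 and 1821 in vg, and 1971 and 1843 in vg_simj discs. All 4 vg-carrying arrays were above all 4 others, while simj overlapped with lacZ and vg_simj with vg. The gene rose by 0.42 ± 0.085 log2 units (1.338-fold, 95% interval 0.22 to 0.62, limma adjusted p = 0.0381).

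The call on mRpS18A was narrow. It was lost under quantile normalization (0.40, adjusted p = 0.0568) and when any 1 of the 8 arrays was left out, with changes of 0.38 to 0.46 and adjusted p-values of 0.0505 to 0.136. In the single comparisons the change was 0.42 ± 0.12 for vg over lacZ (adjusted p = 0.254), 0.42 ± 0.12 for vg_simj over lacZ (adjusted p = 0.132) and 0.42 ± 0.12 for vg_simj over simj (adjusted p = 0.157). The other S18-type genes, named after the values of mRpS18A were seen, were not called, with changes of 0.082 ± 0.099 for mRpS18B and 0.053 ± 0.087 for mRpS18C, though whether they differ from mRpS18A was not tested.

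Ring gland and haemocyte markers divided the arrays in the same way as mRpS18A. The summed signal of 7 ring gland markers (of 8 listed, all 7 above the array median in every group) was 22962 and 28395 in lacZ, 28620 and 35090 in simj, 7485 and 7909 in vg, and 4620 and 3990 in vg_simj discs. That of the 9 haemocyte markers ranged from 5833 to 10748 on the arrays without vg and from 1812 to 3916 on those with it. The part of either tissue in the rise of mRpS18A was not tested.

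The gene mRpL18 ran the other way. In bacteria its counterpart holds the 5S RNA in the central protuberance of the large subunit. It read 604.4 and 607 in lacZ, 635.8 and 677.9 in simj, 469.5 and 524.4 in vg, and 491.6 and 414 in vg_simj discs. All 4 vg-carrying arrays were below all 4 others, but the change of -0.41 ± 0.10 (0.751-fold, 95% interval -0.65 to -0.17) missed the threshold with an adjusted p of 0.0767. Its change was -0.29 ± 0.15 in vg and -0.42 ± 0.15 in vg_simj against lacZ (adjusted p = 0.585 and 0.211), and -0.54 ± 0.15 between vg_simj and simj (adjusted p = 0.146). The ring gland and haemocyte marker sums given above divided the arrays in the same way, and the part of either tissue in the mRpL18 signals was not tested.

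Over the whole set, the vg contrast had a median change of 0.081, beside 0.026 over all probe sets, and 55 of 68 changes were positive. An unadjusted p under 0.05 was reached by 6 genes (8.82%), beside 21.4% of all probe sets. They were mRpS18A, mRpL18, mRpL22 (0.28 ± 0.086), mRpL20 (0.26 ± 0.10), mRpL14 (0.27 ± 0.11) and mRpL48 (0.23 ± 0.096), and the last 4 had adjusted p-values of 0.129 to 0.222. All 4 vg-carrying arrays were above the other 4 for 5 genes (7.35%, beside 6.05% of all probe sets), namely mRpS18A, mRpL14, mRpL22, whose bacterial counterpart lines the exit tunnel of the nascent chain, and the mitochondria-specific mRpL48 and mRpL50. They were below for mRpL18 alone (1.47%, beside 5.66%). The genes mRpL22, mRpL48 and mRpL50 were named after their values were seen.

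The simj contrast, the 4 simj-carrying arrays against the other 4, called 0 of 68 genes, beside 2.18% of all probe sets, and 0 had an unadjusted p under 0.05, beside 12.8%. Its median was -0.05, beside -0.01, and 14 of 68 changes were positive. The arrays did not overlap for 0 genes upward (beside 2.25% of all probe sets) and for 1 gene downward, mRpS18C (1.47%, beside 4.25%), named after its values were seen. Without vg_simj replicate 2 the median was 0.019 and without vg_simj replicate 1 it was -0.124. The extreme changes were -0.29 ± 0.13 for mRpL9 and 0.20 ± 0.10 for mRpL20.

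**Figure D3:**
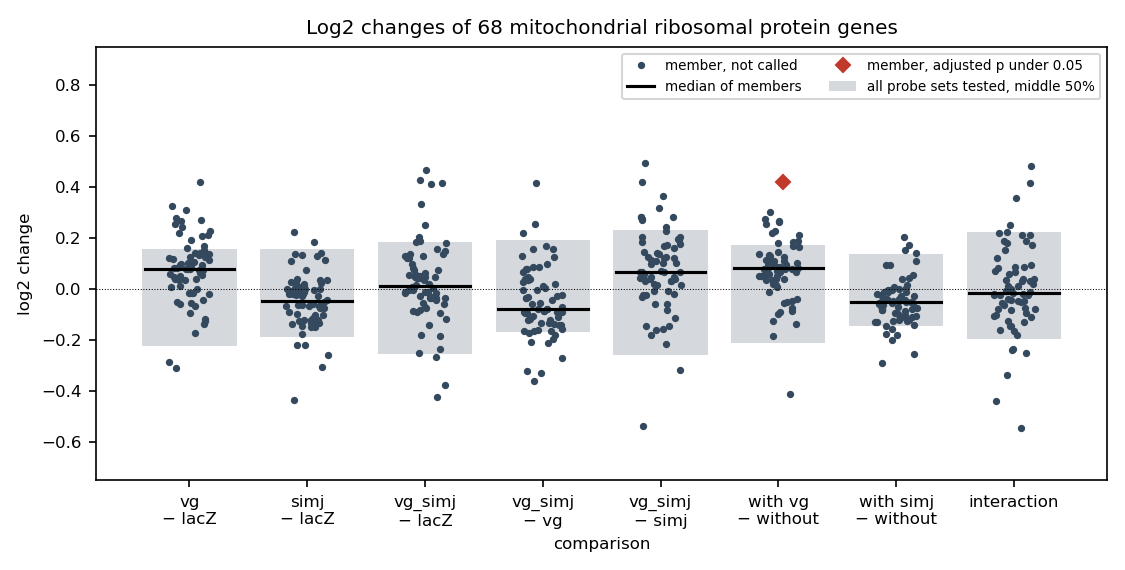
Log2 change of each of the 68 genes (points) in 8 contrasts, with the median of the 68 (black line) and the middle 50% of all probe sets tested (grey box); "with vg" and "with simj" set 4 arrays against 4. The red diamond is mRpS18A at 0.42, the sole called gene, and the lowest point in that column is mRpL18 at -0.41.

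Whether vg acted differently in the presence of simj was asked through the interaction, the effect of vg with simj minus its effect without. Of 68 genes 0 were called, beside 0.049% of all probe sets, and 1 had an unadjusted p under 0.05, beside 3.96%. The median was -0.014, beside 0.032. It was -0.14 without vg_simj replicate 1 and 0.143 without replicate 2. The widest negative value was that of mRpL35, a large-subunit protein that bacteria share. It read 846.6 and 800.8 in lacZ, 1033 and 900.6 in vg, 1070 and 867.2 in simj, but 847 and 703.9 in vg_simj discs. All 4 arrays with a single transgene were above both lacZ arrays, while of the vg_simj arrays 1 was level with the higher lacZ array and the other below both. The interaction was -0.55 ± 0.23 (unadjusted p = 0.0452 in limma, adjusted p = 0.995).

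Next among the negative interactions were mRpL40 (-0.44 ± 0.22), a mitochondria-specific protein, and mRpS24 (-0.34 ± 0.25), the S3-type protein of the small subunit. The highest were mRpS6 (0.48 ± 0.26), mRpL54 (0.42 ± 0.25) and mRpL52 (0.36 ± 0.30). All had an adjusted p of 0.995. Intervals were wider here than in the other contrasts, and 65 of 68 lay within 2-fold and 30 within 1.5-fold, beside 55.0% and 15.7% of all probe sets.

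**Figure D4:**
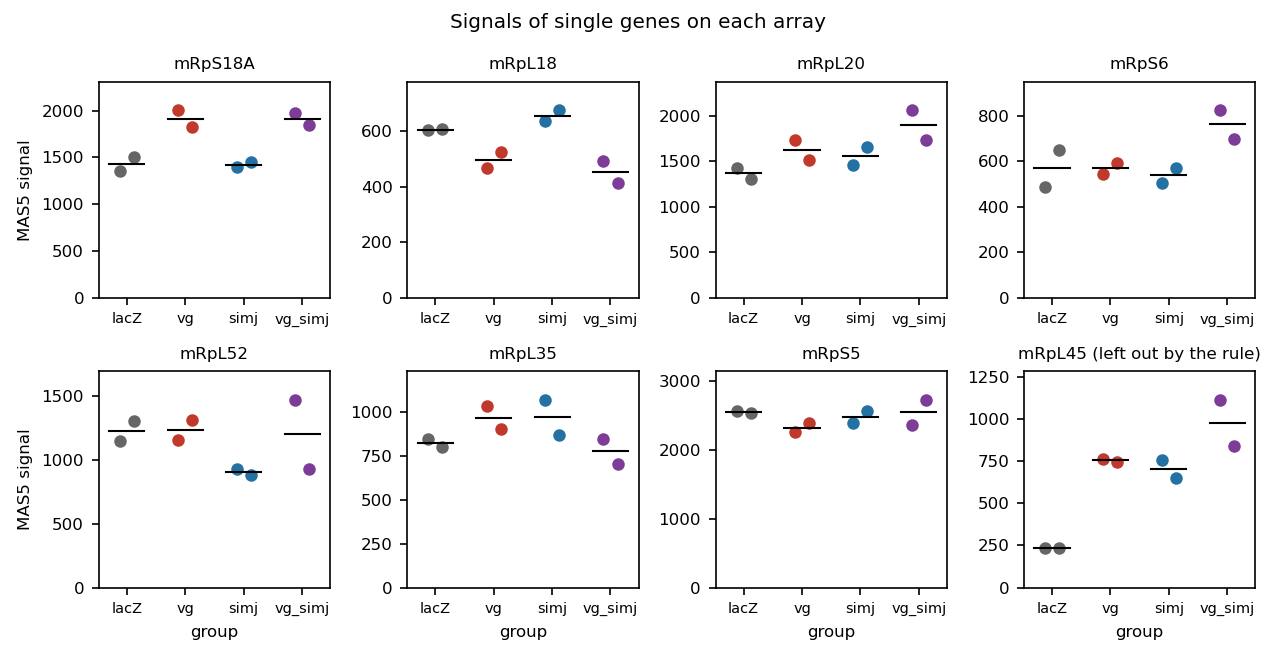
MAS5 signals (y axis from 0) of 8 genes in the 4 groups (x axis), with 1 point per array and a bar at the mean of 2 arrays. The points of mRpS18A and mRpL18 separate the vg-carrying groups from the others, mRpS6 is highest on the 2 vg_simj arrays, and mRpL45, which the symbol rule leaves out, is lowest on the 2 lacZ arrays.

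The genes of the stalk proteins, which bring translation factors to the ribosome, were not called in any contrast. The gene mRpL12 read 2215 and 2275 in lacZ, 2640 and 2562 in vg, 2326 and 2398 in simj, and 2616 and 2061 in vg_simj discs. Its arrays in vg and in simj were above those of lacZ, while the 2 vg_simj arrays lay on either side of lacZ. The change with vg against lacZ was 0.21 ± 0.13 (adjusted p = 0.679). The stalk base gene mRpL10 read 871.2 and 944.8 in lacZ and 925.3 and 865.6 in vg discs, overlapping, and 1193 and 834.4 in vg_simj discs. For mRpL1, which forms the mobile stalk on the opposite flank, the arrays ran from 702.2 to 867.4 and both of these extremes were replicate 1 arrays, of lacZ and of vg.

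The genes for proteins around the catalytic centre and the exit tunnel did not all vary alike. For 2 of them named above, the highest array exceeded the lowest by 1.515-fold (mRpL2) and 1.419-fold (mRpL22). Across the 8 arrays mRpL3, near the centre, ran from 674.8 to 831.9, with both extremes in lacZ discs. The tunnel gene mRpL4 ran from 1486 to 1824, with both extremes in vg-carrying discs. The gene mRpL44, whose product has the fold of an RNase III enzyme, ran from 1153 to 1352. None of these genes was called in any contrast.

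The small-subunit genes mRpS7, mRpS2 and mRpS29 were not called in any contrast either. The gene mRpS7, needed for assembly of the subunit's head in bacteria, read 2280 and 2380 in lacZ and 2778 and 2434 in vg_simj discs, with vg and simj in between or overlapping (2579 and 2354, 2336 and 2447). For mRpS2 the arrays ran from 540.3 to 759.7, and replicate 1 was above replicate 2 in all 4 groups. The GTP-binding protein gene mRpS29, homologous to human DAP3, has no bacterial counterpart. It read 659.6 and 685 in lacZ, 703 and 540.6 in vg, 605.9 and 777.4 in simj, and 785.2 and 689.4 in vg_simj discs. The gap between its vg arrays spans both lacZ arrays, while both vg_simj arrays were above them (0.13 ± 0.18, limma adjusted p = 0.818). Large-subunit and small-subunit genes had like medians in the vg contrast (0.081 and 0.082), as did genes with and without a bacterial counterpart (0.081 and 0.084).

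Most genes shared 1 profile over the arrays. Each gene was set against the median profile of the other 67 by Pearson correlation of log2 signals over 8 arrays, which share the replicate displacement above, so the values are a description. The median correlation was 0.714, and 57 of 68 genes were above 0.5. No such correlation was taken for another list or for all probe sets, so this count has no background to be set against. Closest to the common profile were mRpL41 (0.966), mRpS28 (0.952) and mRpL47 (0.937), named after their values were seen. A negative correlation was found for 3 genes, mRpS5 (-0.743), mRpS30 (-0.301) and mRpL18 (-0.267).

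The gene mRpS5, a small-subunit protein near the decoding region, ran against the others within the displaced groups. It read 2575 and 2545 in lacZ, 2258 and 2396 in vg, 2394 and 2573 in simj, and 2360 and 2735 in vg_simj discs. In vg and vg_simj its replicate 1 was the lower, where most of the 68 genes were higher on replicate 1. The gene mRpS30, whose human counterpart sits in the large subunit, did likewise in vg_simj discs, at 1275 and 1704, and in vg discs at 1387 and 1510. Neither was called in any contrast, and the total span of mRpS5 over 8 arrays was 1.211-fold.

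For mRpS11 and mRpL47 a further probe set allowed a check of the measurement. On the chosen probe set mRpS11 read 1736 and 1642 in vg against 1470 and 1426 in lacZ discs, and on the other 1224 and 1299 against 1227 and 1074, where the groups overlapped. For mRpL47 the chosen probe set read 2656 and 2332 in vg against 2325 and 2297 in lacZ discs, while the other, at 1093 and 1052 against 1117 and 1057, overlapped. The probe sets of a gene therefore disagreed on whether the groups were separate, in differences of this size.

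Other genes of mitochondrial translation and biogenesis were mostly not called either. Of 9 mitochondrial translation factor genes, 0 were called in any contrast, with median changes of 0.181 in vg, 0.035 in simj and 0.189 in vg_simj against lacZ. The ribosome recycling factor gene mRRF1 had the widest change, 0.58 ± 0.19 in vg_simj against lacZ (adjusted p = 0.183). Of 15 mitochondrial aminoacyl-tRNA synthetase genes, which charge the tRNAs, 0 were called (medians -0.034, -0.074 and -0.042). The 10 genes of mitochondrial DNA maintenance and transcription had 0 calls too (-0.091, 0.025 and 0.136). In the vg contrast an unadjusted p under 0.05 was reached by 2 of the 9 (22.2%), 1 of the 15 (6.67%) and 0 of the 10, beside 21.4% of all probe sets. The list of 6 growth and biogenesis regulators lacks Myc, srl and Delg, which had no probe set under those single symbols. Of the 6, 1 rose (16.7%), beside 3.33% of all probe sets called in either direction and 106 of 10205 called upward. It was Max, the binding partner of Myc, by 0.56 ± 0.11 in vg_simj against lacZ (limma adjusted p = 0.0346). Its mean signals were 1504 (lacZ), 1685 (simj), 1857 (vg) and 2213 (vg_simj), and in the same comparison Cdk4 changed by 0.15 ± 0.16 and CycD by -0.16 ± 0.22, neither called. Between the same groups the salivary gland marker sums went from 181.1 and 245 to 15209 and 1831 and the ring gland sums from 22962 and 28395 to 4620 and 3990, and their part in the rise of Max was not tested.

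The respiratory chain genes, whose mitochondrially encoded partners these ribosomes translate, were mostly lower with vg. In the vg contrast the 54 genes tested had a median of -0.372, 51 of 54 changes were negative, 3 genes fell (5.56%, beside 3.66% of all probe sets called in either direction) and 36 had an unadjusted p under 0.05 (66.7%, beside 21.4% of all probe sets). The 3 were complex I subunit genes, ND-13B (-0.59 ± 0.12, limma adjusted p = 0.0457), ND-15 (-0.55 ± 0.12, adjusted p = 0.0455) and ND-39 (-0.59 ± 0.12, adjusted p = 0.0363). Against lacZ the median was -0.213 in vg and -0.269 in vg_simj discs. There 2 and 5 genes had an unadjusted p under 0.05 in limma (3.7% and 9.26%), beside 10.1% and 15.4% of all probe sets. In vg_simj against simj the median was -0.52, with 38 genes at such a p (70.4%, beside 17.1%). In simj against lacZ it was 0.27, so the widest fall with vg was the one from simj discs. Of 34 cytosolic ribosomal protein genes with a single-symbol probe set 32 were tested, and genes that share a probe set are not among them. In the vg contrast their median was 0.075 (lowest -1.112, highest 0.317), with 0 calls and 2 genes at an unadjusted p under 0.05. The lists were set side by side without a test between them.

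Muscle markers moved with the respiratory chain genes. The summed signal of 8 muscle markers was 47315 and 23951 in lacZ, 27941 and 13573 in vg, 46371 and 54169 in simj, and 27733 and 23434 in vg_simj discs. The median deviation of the respiratory chain genes was 0.24 and -0.131 in lacZ, -0.045 and -0.254 in vg, 0.241 and 0.39 in simj, and -0.01 and -0.404 in vg_simj discs. On both lists replicate 1 was the higher in lacZ, vg and vg_simj. Muscle sums overlapped between the arrays with and without vg. The ring gland and haemocyte sums given above were lower on all arrays with vg than on all those without. The part of muscle or of either of these tissues in the fall of the 3 genes was not tested.

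The gene that the symbol rule leaves out, mRpL45, spanned 4.718-fold over the 8 arrays. It encodes a large-subunit protein without a bacterial counterpart. It read 236.5 and 236.1 in lacZ, 764.2 and 745.7 in vg, 756.7 and 652 in simj, and 1114 and 840.6 in vg_simj discs. All 6 arrays with vg or simj were above both lacZ arrays. Its mean signal was 236 with 2 copies of UAS-lacZ (lacZ), 755 and 704 with 1 copy (vg and simj) and 977 with 0 copies (vg_simj). The number of copies cannot be told apart from genotype here. The salivary gland markers also set lacZ apart, with sums of 181.1 and 245 in lacZ and of 872.5 to 15209 on the other 6. On the 2 vg arrays these sums were 5806 and 872.5, where mRpL45 read 764.2 and 745.7. The part of salivary gland tissue in the rise of mRpL45 was not tested. It rose by 1.66 ± 0.17 in vg (limma adjusted p = 0.00626), by 1.56 ± 0.17 in simj (adjusted p = 0.0164) and by 2.02 ± 0.17 in vg_simj discs (adjusted p = 0.000956), all against the same lacZ arrays. With mRpL45 counted, an alternative added after the data were seen, the calls would be 1 of 69 in each of these comparisons and 2 of 69 in the vg contrast.

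Of the genes with other names, tko, whose mutants are sensitive to mechanical shock, read 2231 and 2405 in lacZ, 1530 and 1251 in vg, 2175 and 2211 in simj, and 2143 and 1645 in vg_simj discs. Both vg arrays were below all others, and its change was -0.74 ± 0.16 in vg against lacZ (0.598-fold, adjusted p = 0.114) and -0.48 ± 0.11 in the vg contrast (adjusted p = 0.0626), neither called. The gene bonsai, known from a growth mutant, had mean signals of 1563 ± 75.7 in lacZ and 1568 ± 58.6 in simj discs, and of 1725 ± 31.2 in vg and 1641 ± 112 in vg_simj discs (SD, n = 2), with no call in any contrast.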

How the data were processed

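Each probe set has 1 deposited intensity per array, a linear signal made with MAS5 per the submitters' processing notes, which state no version. The mean trimmed by 2% at either end was 500 on all arrays, so the authors' scaling used 1 factor per array. Per the labels, RNA (100 ng) was amplified in repeated rounds of cDNA synthesis. Array medians lay between 36.6 and 46.3. Detection calls were not used, and precision is limited by having 2 arrays per group.

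Of 18952 probe sets, 183 were controls and were left out. Symbols came from the platform annotation and were checked against the RefSeq gene table: 13647 probe sets had 1 symbol, 402 several and 4903 none. The table lacked 103 of the single-symbol probe sets, and it changed 0 symbols. Probe sets above the array median on at least 2 of 8 arrays were kept (10205, of which 8759 had 1 symbol). The values log2(signal + 2.8), where 2.8 is the 10th percentile of all signals and understates changes of dim genes, were fitted with limma 3.58.1 in R 4.3.3 (group means over 8 arrays, eBayes with an intensity trend, 4 residual and 3.84 prior degrees of freedom, two-sided). Adjustment was by Benjamini-Hochberg within each of 8 contrasts. With 2 arrays against 2, an exact permutation test reaches 0.333 at best. Replicate correlations across probe sets were 0.955 to 0.971, and those between groups 0.912 to 0.963, over genes that are not independent.

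Genes were named if called in any contrast, if among the 3 largest positive or negative changes against lacZ or in the interaction, or if on a list of 12 genes (mRpL1, mRpL2, mRpL3, mRpL4, mRpL10, mRpL12, mRpL44, mRpS2, mRpS5, mRpS7, mRpS29, mRpS30). Others are identified as named after their values were seen. The members and lists were chosen with earlier results of these data known. Alternatives were other pseudocounts, no filter, quantile normalization, median centring, a mean over a gene's probe sets, a replicate block, each array left out, and mRpL45 kept. The sources used here name no batch and do not tie same-numbered replicates together. The correlation of their deviations from the group means was positive in all 6 pairs of groups. It was above 0.1 in 4 (0.342 for lacZ and vg, 0.25 for lacZ and vg_simj, 0.402 for vg and vg_simj, 0.135 for simj and vg_simj) and below it in 2 (0.059 and 0.071). The numbers were not taken as pairs because the sources do not tie them, and the replicate block is the alternative. A shared origin of same-numbered replicates was not tested. In data simulated for vg against lacZ (10205 probe sets, 200 changed, 5 simulations) the code recovered 50.4% of changes of 1 log2 unit and 81.4% of changes of 2, with 5.3% false calls. Positions in the RefSeq gene table (Release 6 assembly) served only to find which genes neighbour or overlap each other, and no coordinates or sequences are printed.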

Additional observations from a re-analysis of the deposited data

How the results depend on the processing

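Counts of called genes stayed within 1.5 times, and medians within 0.115 log2 units (the SD of the median between replicates), under both other pseudocounts, no filter, median centring and the mean over a gene's probe sets. This margin is wider than the median of the 68 genes in each of the 8 contrasts, so a change of sign could fall within it. Within that margin median centring moved the median from 0.081 to 0.13 in vg, from -0.047 to -0.026 in simj and from 0.013 to 0.044 in vg_simj against lacZ, and from -0.014 to -0.053 in the interaction. Quantile normalization changed 1 of them: 0 genes were called in the vg contrast in place of 1. Leaving out any array also gave 0 there (0 to 0 over the 8 arrays). Over the same omissions the median of the 68 genes ran from -0.127 to 0.207 in vg_simj against lacZ, from -0.197 to 0.093 against vg, from -0.066 to 0.238 against simj and from -0.14 to 0.143 in the interaction, the ends coming from the 2 vg_simj arrays. Of the named changes, that of mRpL54 in vg against lacZ turned to 0.03 without vg replicate 2 (-0.372 without replicate 1) and that of mRpL2 in vg_simj against lacZ to 0.02 without vg_simj replicate 2 (-0.552 without replicate 1). The cause was not tested beyond the array omitted. With mRpL45 kept, 1 gene was called in vg, simj and vg_simj against lacZ and in the simj contrast, and 2 in the vg contrast.

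The replicate number as a block left the median changes of the 68 genes as they were (0.081 in the vg contrast) and the calls at 1 in the vg contrast and 0 elsewhere. Over all probe sets the block moved the calls from 374 to 630 in the vg contrast and from 133 to 213 in vg_simj against simj, and by less than 1.5 times in the others. Whole-table calls in simj against lacZ were 28 with 0.1 times the pseudocount and without the filter, in place of 42, and with the mean over a gene's probe sets the interaction had 3 calls in place of 5. With 1 array left out the whole-table calls ran from 26 to 88 in vg, 1 to 34 in simj and 156 to 337 in vg_simj against lacZ, 21 to 87 in vg_simj against vg, 28 to 174 against simj, 134 to 494 in the vg contrast, 100 to 219 in the simj contrast and 0 to 10 in the interaction.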

Other observations

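Neighbouring genes give a further view of the 68 loci. By the order of genes in the RefSeq annotation, 136 neighbours were listed on either side of the 68 genes and 107 of them were tested. In the vg contrast 4 of the 107 were called (3.74%, beside 3.66% of all probe sets). They were nvd, a gene of ecdysone synthesis beside mRpS5 (-2.78, limma adjusted p = 9.1e-05), CenG1A beside mRpS23 (-0.66, adjusted p = 0.0263), CG9004 beside mRpL23 (0.60, adjusted p = 0.0341) and CG6028, which overlaps mRpL35 (-0.66). The 4 mitochondrial ribosomal protein genes beside them were not called in that contrast, and nvd is itself among the ring gland markers.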
